A study of Apostichopus japonicus with 3 samples.

Results

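Krüppel-like factors are transcription factors named after the Krüppel protein of Drosophila. They bind GC-rich and CACCC-type elements of promoters through C2H2 zinc fingers near their C-terminal end, and switch target genes on or off by recruiting co-activators or co-repressors. In mammals, KLF2 is known for its induction by fluid shear stress in endothelium and for holding T cells quiescent, KLF4 for growth arrest and differentiation of epithelia and for reprogramming of cells to pluripotency, and KLF7 for axon growth in neurons. In Caenorhabditis elegans and in mouse, members of the family act on genes of autophagy and lipid metabolism.

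The family was examined in the respiratory tree, the branched organ through which the sea cucumber Apostichopus japonicus takes up oxygen, across aestivation, a summer dormancy. The 3 groups, in stage order, were non-aestivation, then deep aestivation, then arousal, with no treatment, strain or age named in the labels, and each was measured in 1 poly(A) RNA library. At least 15 individuals were used per stage, and whether their RNA was pooled is not stated. With 1 library per stage no difference has a replicate check, no p-value was computed, and each comparison is between libraries.

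The values are per isotig, a transcript put together in a published transcriptome of the species. The members are isotig09309, whose best protein match is KLF2/4, and every other isotig with KLF or Krüppel-like in the name of its match. This gave 3 of 20991 isotigs with a read. No other isotig carried Krüppel in any spelling. The isotig named KLF2/4 was chosen by its measured values, the difference in read rate between deep aestivation and non-aestivation, so these are a description, while the others were found by name alone. KLF2/4 is the name of a sea urchin protein (Paracentrotus lividus), which isotig09309, 2107 bases long, matched with an E-value of 4.39e-58. The other members, isotig19479 (828 bases, E-value 4.07e-51) and isotig28523 (350 bases, E-value 6.79e-16), had the same best match, Kruppel-like factor 7 of the sea urchin Strongylocentrotus purpuratus. They may thus be pieces of 1 gene or separate genes, which the files do not settle.

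The 3 libraries held between 0.887 M and 0.963 M (1e6) uniquely assigned reads. Comparisons took the 10896 isotigs whose reads summed to 20 or more, and 2 of the 3 members passed this filter. No transcript that defines the respiratory tree was available to check the tissue label. Marker transcripts of muscle, cilia and coelomocytes (the free cells of the body cavity) had reads in each library.

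The KLF2/4 isotig was far more abundant in both later stages than in non-aestivation. It had 176 reads in the non-aestivation library, 1450 in that of deep aestivation and 1028 in that of arousal. Per length and depth, in reads per kilobase and per 1e6 reads (RPKM), isotig09309 stood at 88.7 RPKM in non-aestivation (95% counting interval 76.1 to 103), against 775.7 RPKM in deep aestivation (736.3 to 816.7) and 506.6 RPKM at arousal (476.1 to 538.6). Where 3 values are listed below, they follow this order of stages. Deep aestivation was thus the highest and non-aestivation the lowest, and none of the 3 intervals overlap. Intervals are exact and cover counting error only, not differences between animals or library preparations. In whole-organ RNA, a change in the number of cells that hold a transcript and a change in its amount per cell cannot be told apart.

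The read rate of the KLF2/4 isotig was 8.74-fold higher in deep aestivation than in non-aestivation (7.47 to 10.3) and 5.71-fold higher in arousal than in non-aestivation (4.86 to 6.74). Between arousal and deep aestivation it was 1.53-fold lower (1.41 to 1.66), a decrease outside counting error but short of 2-fold. Ranked by RPKM among the isotigs compared, it held place 1698 of 10896 in non-aestivation, but place 143 in deep aestivation and place 236 at arousal. In the same stages its level was 3.13, 29.9 and 20.1 times the median isotig. The KLF2/4 isotig thus lay in the upper part of the ranking in non-aestivation and near the top of it in the later stages.

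Reads covered most of the KLF2/4 isotig in every stage. Of its bases 80.7% had a read in non-aestivation, 84.7% had one in deep aestivation and 89.4% at arousal. This left 406, 322 and 224 bases without a read. Arousal, with fewer reads than deep aestivation, covered more of the isotig. From 176 reads in non-aestivation to 1450 in deep aestivation, the share covered rose only from 80.7% to 84.7%. The values do not show where along the isotig the added reads lay.

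The members named Kruppel-like factor 7 had few reads in all stages. The longer one, isotig19479, had 25 reads in non-aestivation, against 17 in deep aestivation and 14 at arousal, or 32.1 RPKM (20.8 to 47.3), 23.1 RPKM (13.5 to 37.1) and 17.6 RPKM (9.60 to 29.5). Its level was highest in non-aestivation and lowest in arousal, but all 3 intervals overlap, so this order was not detectable at this depth. Its rate in deep aestivation was 0.722 times that in non-aestivation (0.366 to 1.39), its rate in arousal 0.759 times that in deep aestivation (0.346 to 1.64) and its rate in arousal 0.547 times that in non-aestivation (0.263 to 1.09). Close to the median isotig in non-aestivation, at 1.13 times its RPKM, it was at 0.891 times the median in deep aestivation and 0.696 times in arousal.

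The short isotig28523 had 4 non-aestivation reads, 3 in deep aestivation and 6 at arousal. Its levels were 12.1 RPKM (3.31 to 31.1), 9.66 RPKM (1.99 to 28.2) and 17.8 RPKM (6.53 to 38.7), with intervals that all overlap. With so few reads, a ratio of arousal to deep aestivation anywhere from 0.393 to 11.4 lay within counting error. Summed, the pair named Kruppel-like factor 7 had 29, 20 and 20 reads across the stages, and its rate in deep aestivation was 0.732 times that in non-aestivation (0.392 to 1.34).

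**Figure D1:**
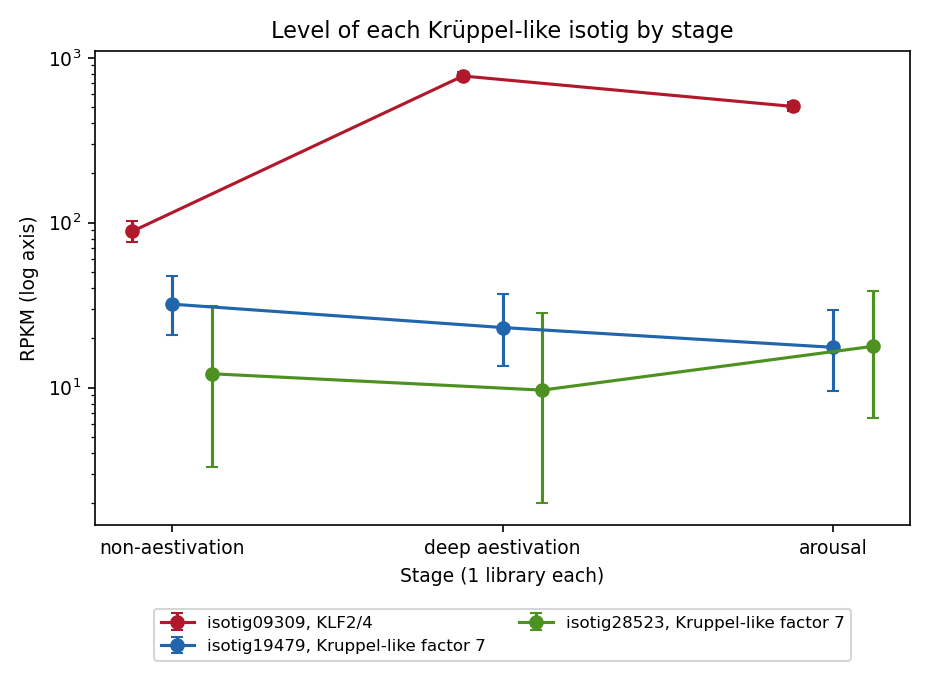
Level of each Krüppel-like isotig in RPKM (log axis) in the 3 stages, 1 library each, with points for the value and bars for its exact 95% counting interval. The KLF2/4 isotig stands at 88.7, 775.7 and 506.6 RPKM, above both isotigs named Kruppel-like factor 7, whose bars overlap across stages.

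The courses of the KLF2/4 isotig and isotig19479 differed by more than counting error in both comparisons with non-aestivation. For isotig28523 alone the ratio of deep aestivation to non-aestivation was 0.796 (0.117 to 4.70), on 3 and 4 reads. That interval lay below the KLF2/4 interval of 7.47 to 10.3. Its ratio of arousal to non-aestivation was 1.47 (0.348 to 7.06), an interval that holds the 5.71 of the KLF2/4 isotig. A difference was thus not shown for isotig28523 in that comparison. Set against isotig19479, the KLF2/4 isotig was 2.77 times as abundant per length in non-aestivation, but 33.5 times in deep aestivation and 28.9 times at arousal. The ratio of the KLF2/4 change to the isotig19479 change was 12.1 between deep aestivation and non-aestivation (exact conditional interval 6.13 to 24.3) and 10.4 between arousal and non-aestivation (5.09 to 22.1). Between arousal and deep aestivation it was 0.861 (0.397 to 1.90), so a difference between these isotigs was not detectable in that step. Such a ratio of ratios does not depend on how the libraries are scaled. The KLF2/4 isotig was chosen for its change, so these ratios describe its distance from isotig19479 and are no test.

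Because it dominated the family, the KLF2/4 isotig also set its total. Of all Krüppel-like reads it held 85.9% in non-aestivation (exact binomial interval 80.3 to 90.3), but 98.6% in deep aestivation (97.9 to 99.2) and 98.1% at arousal (97.1 to 98.8). The summed reads numbered 205, 1470 and 1048 in these stages. Summed, the family was 7.61-fold higher in deep aestivation than in non-aestivation (6.57 to 8.85), while without the KLF2/4 isotig the ratio was below 1, at 0.732.

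**Figure D2:**
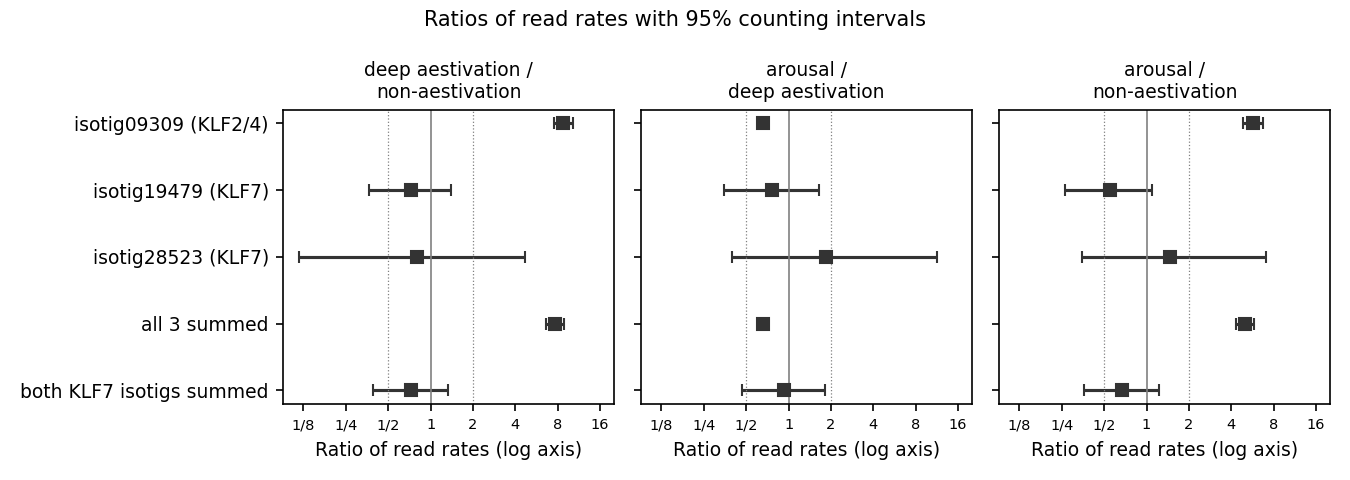
Ratio of read rates (log axis) between stages for each Krüppel-like isotig, for all 3 summed and for the pair named Kruppel-like factor 7 summed, with squares for the ratio and bars for the exact 95% counting interval. Dotted lines mark 2-fold. The intervals of the KLF2/4 isotig and of the total, from 7.47 to 10.3 and from 6.57 to 8.85 in deep aestivation over non-aestivation, lie beyond 2-fold in both comparisons with non-aestivation, and the pair's intervals span equality in all comparisons.

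Isotigs were called higher or lower when log2(RPKM + 0.5) differed by at least 1, which makes rare transcripts look less changed than they are. Between deep aestivation and non-aestivation, 1 of the 2 members compared was higher, the KLF2/4 isotig, and 0 were lower. Over all isotigs 13.1% were higher and 18.6% lower in that comparison, and since the member was chosen for this contrast nothing is read from the count. Between arousal and deep aestivation 0 of 2 were higher or lower, where 8.06% of all isotigs were higher and 8.93% lower. Between arousal and non-aestivation 1 of 2 was higher and 0 were lower, against 12.5% and 18.8% of all isotigs. These comparisons share libraries and are not independent.

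Of the members, only the KLF2/4 isotig carried the gene ontology term for transcription factor activity that binds nucleic acid, in the annotation the authors deposited. The term was also on proteins that are by name no transcription factors. Examples are histone deacetylase 1, transcriptional co-repressor Sin3A and a DNA topoisomerase II match. The process terms of the KLF2/4 isotig included the cellular response to reactive oxygen species, shared with 2 other isotigs, and the response to fluid shear stress, shared with 0 others. Among the 49 compared isotigs with the transcription factor term, a list drawn up after the data had been seen, the KLF2/4 isotig had a log2 difference of 3.12 between deep aestivation and non-aestivation, and the next was 1.72, on the Runt isotig (isotig06439). Since the KLF2/4 isotig was chosen on that same difference, its place supports nothing. Over all 10896 isotigs compared its place by this difference was 85, and it was 22 among the 3926 with at least 100 reads. Between arousal and non-aestivation, which share the non-aestivation library with that choice, its difference of 2.51 was the first of the 49, with the next at 2.17, and took place 134 over all isotigs and 33 among those with at least 100 reads. Between arousal and deep aestivation, at -0.61, it ranked 13 from the bottom of the 49.

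In that annotated group 6 isotigs were higher in deep aestivation than in non-aestivation, the KLF2/4 isotig included, and 13 were lower, or 12.2% and 26.5%, against 13.1% and 18.6% of all isotigs. Histone deacetylase 1 and the DNA topoisomerase II match were among the 13 lower. Without the KLF2/4 isotig 5 were higher, and 9 with TMM scaling. The median log2 difference of the group was -0.09, against -0.12 over all isotigs compared and -0.36 over those with a protein match. The following transcripts were picked as examples after their values were seen. An isotig named nuclear factor erythroid derived 2 (isotig06127), of the leucine-zipper family that includes regulators of antioxidant genes in mammals, stood at 88.5 RPKM in non-aestivation, at 196.2 in deep aestivation and at 140.9 upon arousal. It was 2.22-fold higher in deep aestivation than in non-aestivation (1.87 to 2.64), so it was level with the KLF2/4 isotig in non-aestivation and stood below it in the other stages. Runt, a regulator of blood and bone development in vertebrates, had 8, 26 and 25 reads and was 3.45-fold higher in deep aestivation (1.52 to 8.81). On the other side, E2F transcription factor 3 (isotig14576), which drives genes of the cell cycle, had 47, 15 and 18 reads and was 2.95-fold lower in deep aestivation (1.62 to 5.69). The homeodomain protein NK2.1 (isotig14549), with 244, 248 and 244 reads, stayed within 2-fold in all comparisons.

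**Figure D3:**
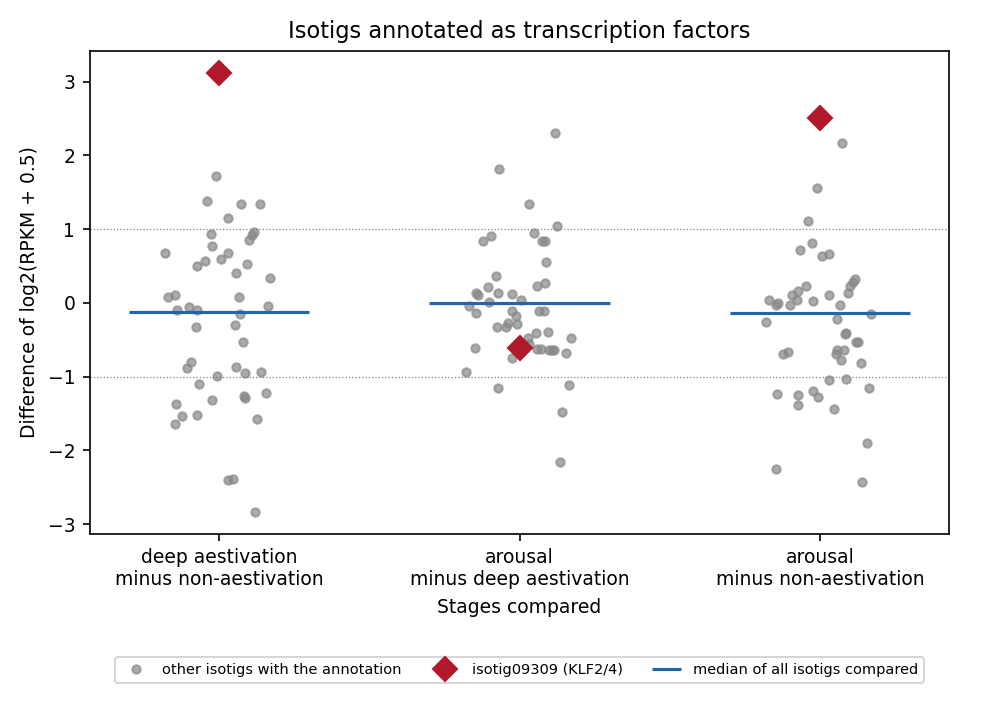
Difference of log2(RPKM + 0.5) between stages for the 49 compared isotigs annotated as transcription factors, 1 point each, spread sideways for legibility, with the KLF2/4 isotig as a diamond and the median of all 10896 isotigs as a line. Dotted lines mark 2-fold. The diamond is the highest point in both comparisons with non-aestivation, at 3.12 and 2.51, and lies among the other points, at -0.61, between arousal and deep aestivation. The KLF2/4 isotig was chosen on its difference between deep aestivation and non-aestivation.

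The isotigs whose course over the 3 libraries lay nearest to that of the KLF2/4 isotig were sought among 3925 isotigs with at least 100 reads, of which 1428 had an informative protein name. The measure was the distance between the pairs of log2 differences (deep aestivation minus non-aestivation, arousal minus deep aestivation), and 11 isotigs, 4 of them named, lay within 0.5. Nearest by name was glycine N-methyltransferase-like (isotig19436), which uses up S-adenosylmethionine, at a distance of 0.26. It had 36.7 RPKM in non-aestivation, against 292.9 in deep aestivation and 222.8 at arousal. Next was the Sec61 gamma subunit (isotig02636) of the channel that moves proteins into the endoplasmic reticulum, at 0.41, with 13.1, 107.3 and 53.3 RPKM. A Neurotrypsin match (isotig14143), a secreted serine protease in vertebrates, lay at 0.42, with 5.79, 42.3 and 23.3 RPKM. It rested on 9, 62 and 37 reads. The methionine-forming enzyme of isotig13345, betaine-homocysteine S-methyltransferase 1-like, lay at 0.49, with 38.7, 424.7 and 358.9 RPKM. The last of the 5 was a smooth muscle-like myosin light chain kinase (isotig13077), which triggers contraction in smooth muscle, at 0.52, with 50.3, 311.3 and 219.8 RPKM. All 5 were highest in deep aestivation and lowest in non-aestivation, an order that their choice by nearness fixed. A course over 3 libraries is a coarse measure, and the nearness is a description.

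**Figure D4:**
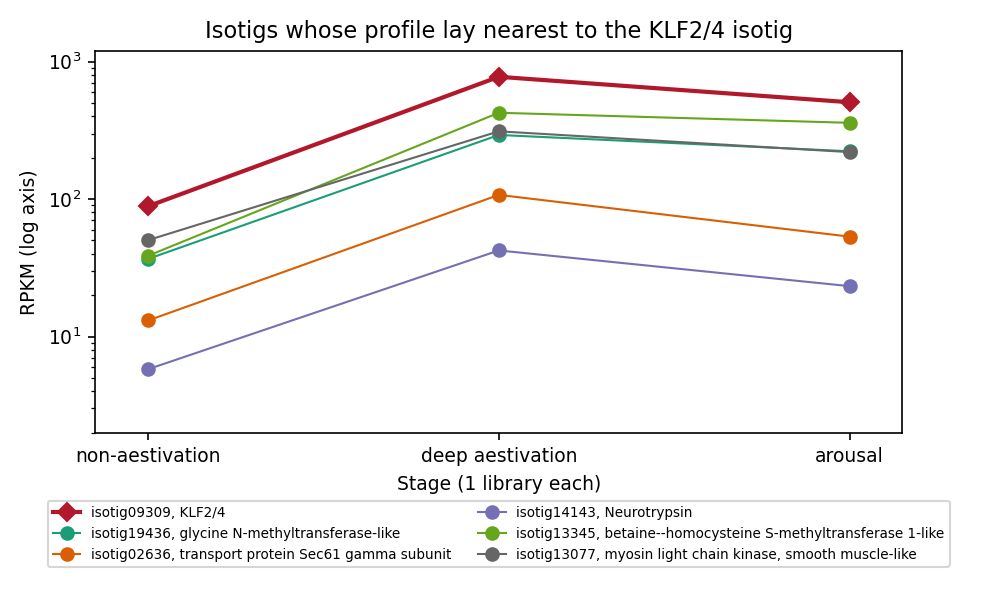
Level in RPKM (log axis) of the KLF2/4 isotig and of the 5 named isotigs nearest to it, in the 3 stages, 1 library each. All lines have their highest point in deep aestivation, where they stand between 42.3 RPKM for the Neurotrypsin match and 775.7 RPKM for KLF2/4.

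Genes that work with Krüppel-like factors in other animals were taken as lists of protein names, counted over isotigs with at least 20 reads. Each list's counts for deep aestivation against non-aestivation stand beside 13.1% higher and 18.6% lower over all isotigs, so that 1 call in a short list is no result about it. The lists hold only isotigs with a protein match. In that comparison the median log2 difference of matched isotigs was -0.36, and of those without a match 0.16. Among isotigs with at least 100 reads and an informative name, 7.28% were higher and 19.7% lower. Among co-factors, 0 of 9 were higher and 1 was lower in deep aestivation against non-aestivation (median log2 difference -0.09). The lower one was histone deacetylase 1 (isotig10233), a co-repressor subunit that removes acetyl groups from histones, with 240 reads in non-aestivation, against 78 in deep aestivation and 152 at arousal. It was 2.90-fold lower in deep aestivation (2.24 to 3.79). CREB-binding protein, a co-activator (isotig14239) picked as an example after its values were seen, had 61, 49 and 42 reads. Of the kinases and MEF2 factors known upstream of KLF2 and KLF4 in mammals, a single isotig was found, mitogen-activated protein kinase 7-like (isotig22651). It had 20, 13 and 13 reads, and equal rates lay within counting error (deep aestivation over non-aestivation 0.690, 0.315 to 1.46). The list of KLF4 partners in reprogramming held no true partner. SoxB2 (isotig19530), a relative of Sox2 from another subgroup, had 102, 94 and 49 reads. Its rate was 0.978 times as high in deep aestivation as in non-aestivation (0.731 to 1.31), and its log2 difference between arousal and deep aestivation was -1.05. The other isotig compared of that list, n-myc downstream regulated (isotig19188), with 54, 27 and 27 reads, is no Myc protein. No isotig matched the ubiquitin ligase list (WWP1, FBXW7 and others).

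The list of other C2H2 zinc finger proteins was drawn to share the finger type of the Krüppel-like factors, though the name pattern also took proteins that are none, such as MORC and NF-X1 proteins, which have other finger types, and a Wilms tumour 1-associating protein, which is no zinc finger factor. Of 31 compared, 9 were higher and 3 lower in deep aestivation against non-aestivation, or 29.0% and 9.68%, against 13.1% and 18.6% of all isotigs, and their median log2 difference was 0.48. The higher isotigs were mostly rare. Only 1 of the 9 had at least 100 reads, and 4 of 9 remained when the counting interval also had to exclude equal rates. With isotigs summed by protein name 1 was lower in place of 3. The one with at least 100 reads, zinc finger protein 395 (isotig03092), was the most abundant of the list, with 74, 158 and 200 reads, 2.27-fold higher in deep aestivation (1.71 to 3.03). The largest difference, on zinc finger protein 709 (isotig09571), rested on 2, 12 and 13 reads. Between arousal and deep aestivation 1 of 31 was higher and 4 were lower, where 8.06% of all isotigs were higher and 8.93% lower.

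Of the processes that the family regulates in worm or mouse, few isotigs reached the filter. Among autophagy proteins 0 of 3 were higher and 1 was lower in deep aestivation against non-aestivation (median -0.31), where 13.1% of all isotigs were higher and 18.6% lower. Autophagy-related protein 3 (isotig18661), which helps attach the autophagosome marker to lipid, had 41, 31 and 35 reads. The lower one, Autophagy-related 4D (isotig19077), a protease of the same conjugation system, had 18, 8 and 5 reads, and its interval included equal rates (0.177 to 1.14). Fatty acid oxidation had 0 higher and 1 lower of 7 (median -0.57). The 7 include an isotig taken by the word carnitine alone and not named as an enzyme of the pathway. It is carnitine deficiency-associated gene expressed in ventricle 1-like (isotig08955). Carnitine palmitoyltransferase I-like (isotig13222), which lets fatty acids into mitochondria, had 88, 36 and 39 reads and was 2.30-fold lower in deep aestivation (1.55 to 3.50). The multifunctional hydroxyacyl-coenzyme A dehydrogenase isotig (isotig06387), of the same pathway, had 139, 69 and 112 reads.

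Amino acid catabolism, a process under KLF15 in mouse, had 0 higher and 2 lower of 4 (median -1.10). Glutamate dehydrogenase 1 (isotig13118), which releases ammonia from glutamate, stood at 60.4 RPKM in deep aestivation, against 183.0 RPKM in non-aestivation, and was 3.03-fold lower (2.54 to 3.63). Ornithine aminotransferase (isotig15012) stood at 57.9 RPKM in deep aestivation, against 188.7 RPKM in non-aestivation, and was 3.26-fold lower (2.50 to 4.30). Of clock proteins only a timeless match (isotig17125) reached the filter, with 19, 11 and 9 reads. Between arousal and deep aestivation, amino acid catabolism had 0 of 4 higher and 0 lower, fatty acid oxidation 1 of 7 higher and 0 lower, and autophagy 0 of 3 in either direction. Over all isotigs 8.06% were higher and 8.93% lower in that comparison.

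**Figure D5:**
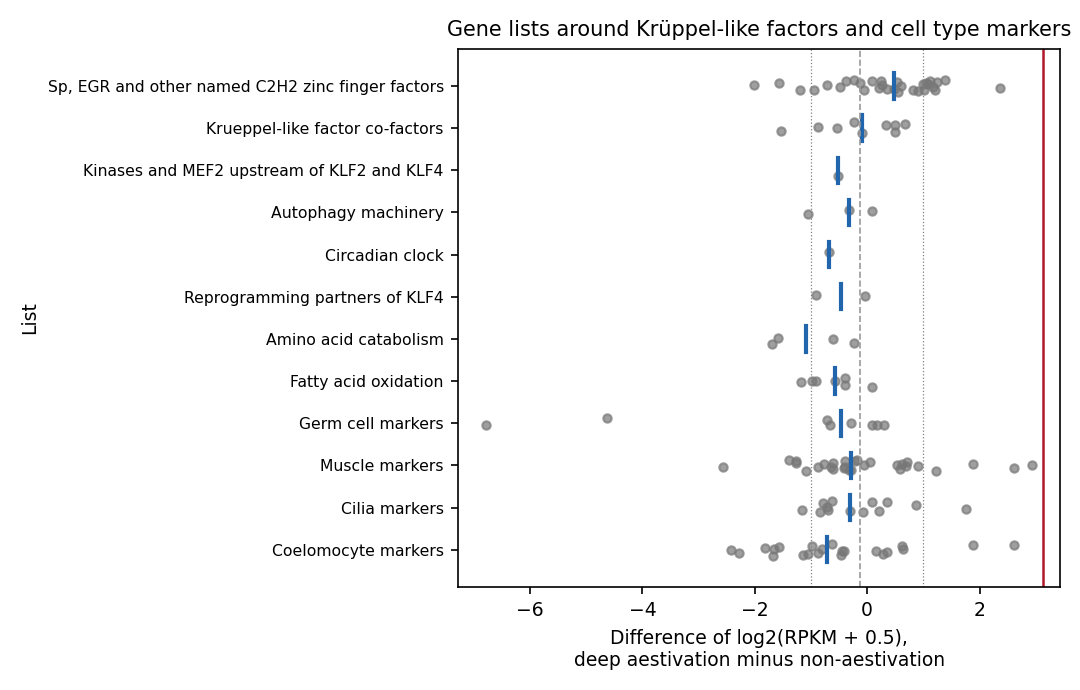
Difference of log2(RPKM + 0.5), deep aestivation minus non-aestivation, for each compared isotig (point) of the lists around Krüppel-like factors and of the cell type marker lists, with a short bar for each list's median. The dashed line is the median of all isotigs (-0.12), dotted lines mark 2-fold, and the solid line at 3.12 is the KLF2/4 isotig. It lies above every point shown, but was chosen on this same difference, so its place supports nothing.

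Marker transcripts of cell types also differed between the stages in which the KLF2/4 isotig did, and their part in its values was not tested. The markers were taken by name, which also took proteins that share only a word with a marker. Examples are a monoxygenase with calponin in its name (isotig01571) and a complement component binding protein (isotig07810). In summed RPKM over stages, 49 muscle marker isotigs stood at 2010 in non-aestivation, at 2368 in deep aestivation and at 1877 upon arousal, and 37 coelomocyte marker isotigs at 6230, 3666 and 3970. The coelomocyte sum rested on complement component 3-2 (isotig29329), at 3075, 572.4 and 559.8 RPKM, and without it the sum was 3155, 3093 and 3410. Cilia markers (36 isotigs) stood at 339.2, 226.3 and 149.3, and germ cell markers (19 isotigs) at 205.2, 97.9 and 66.9. Of these sums only that of muscle was, like the KLF2/4 isotig, highest in deep aestivation, and it was lowest at arousal. Much of its rise lay on isotig13077, chosen above for its nearness to the KLF2/4 isotig, at 50.3, 311.3 and 219.8 RPKM. Without that isotig the muscle sum was 1959, 2057 and 1657 RPKM. The summed muscle reads were then 3671, 3241 and 2829, highest in non-aestivation. The most abundant muscle marker, titin-like (isotig13411), had 762, 1101 and 809 reads, and the one with the largest difference, skeletal muscle myosin light chain 1 (isotig02278), had 4, 32 and 1. Of the coelomocyte list, dual oxidase-A (isotig13477), which makes hydrogen peroxide, led with 1870, 2705 and 3690 reads, and a membrane SRCR-domain isotig (isotig16758) differed most, with 2, 14 and 7. Of the cilia list these were radial spokehead (isotig14093), with 93, 53 and 38 reads, and radial spoke head 1 (isotig16082), with 4, 14 and 8. In deep aestivation against non-aestivation, where 13.1% of all isotigs were higher and 18.6% lower, 4 of 29 compared muscle isotigs were higher and 5 lower, the myosin light chain kinase named above being 1 of the 4. Coelomocyte isotigs were higher in 2 and lower in 8 of 22, cilia isotigs higher in 1 and lower in 1 of 13, and germ cell isotigs higher in 0 and lower in 2 of 8. Of the 19 germ cell markers 0, 6 and 8 were at 0 reads in the stages, and of the 36 cilia markers 1, 10 and 15. Of the 49 muscle markers these were 3, 5 and 7, and of the 37 coelomocyte markers 3, 6 and 5. Of all 20991 isotigs 18915, 17992 and 18141 had a read. In the germ cell list, the sperm protein bindin (isotig16157), with the largest difference, had 61, 0 and 0 reads. Its most abundant isotig, spermatogenesis-associated protein 20 (isotig13603), had 31, 36 and 25.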

How the data were processed

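Poly(A) RNA of respiratory trees was sheared and copied from random primers, per the labels' protocols, which name no strand-keeping step. The submitters' processing notes name CASAVA 1.5; an aligner is not given in the sources that were used here. For each library the authors deposited the count of uniquely aligned reads per isotig, the percent of its bases covered, and the RPKM. Recomputed RPKM matched within a relative tolerance of 1e-09. Isotigs absent from one table counted as 0 reads there.

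Ratios of read rates have exact conditional binomial (Clopper-Pearson) 95% intervals, and levels exact Poisson intervals. Calls needed 20 reads over the libraries and 2-fold on log2(RPKM + 0.5). Named transcripts were all members, the 5 nearest in course, and each list's most abundant member and largest change; other examples are marked as picked. Members and the 13 lists were chosen with earlier results of these data known. Alternatives were other pseudocounts, filters and scalings (edgeR 4.0.16, DESeq2 1.42.0), an interval criterion and sums by protein name. Python 3.11.15, scipy 1.17.1 and R 4.3.3 were used.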

Additional observations from a re-analysis of the deposited data

How the results depend on the processing

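The KLF2/4 isotig kept its direction and its side of 2-fold under all alternatives run. Its log2 difference ranged from 3.11 to 3.29 between deep aestivation and non-aestivation, from -0.67 to -0.58 between arousal and deep aestivation, and from 2.50 to 2.70 between arousal and non-aestivation. All 54 recomputed counts of members past 2-fold were as reported. Counts for the lists were less stable: 94 recomputed counts moved beyond a set margin and 428 did not. In the transcription factor group without the KLF2/4 isotig, 13 were lower in deep aestivation against non-aestivation. With no filter 23 were lower, and with at least 100 reads 4, since the filter changes which isotigs are counted. TMM factors moved the median log2 difference of all isotigs by 0.17 between deep aestivation and non-aestivation and by 0.19 between arousal and non-aestivation, and median-of-ratios factors by 0.13 and 0.17. Without the KLF2/4 isotig, the summed ratio was 0.732 for deep aestivation against non-aestivation and 0.674 for arousal against non-aestivation, both in the opposite direction, and 0.921 for arousal against deep aestivation; the construction of the sum, which this isotig dominates, gives the cause. Over the lists around Krüppel-like factors pooled, 9 isotigs were higher and 8 lower in deep aestivation. Of all isotigs 13.1% were higher and 18.6% lower. All 9 higher isotigs and 3 of the lower ones came from the C2H2 list, so the pooled counts mix lists that differ. With no filter the pooled counts were 19 and 23, because rarer isotigs entered. With at least 100 reads, where fewer isotigs were counted, 1 was higher and 6 lower. Of all isotigs with at least 100 reads 13.8% were higher and 13.5% lower. When the interval had to exclude equal rates, 4 of the pooled isotigs were higher and 7 lower, so the near balance of higher and lower was not kept. These pooled counts are small, and nothing about the lists is read from them. When isotigs with at least 20 reads, in place of 100, were searched, 3 of the 5 nearest isotigs were among the nearest 5. No paired analysis was possible because each stage has 1 library. Depth limits the isotigs named Kruppel-like factor 7, whose summed 29, 20 and 20 reads leave a 2-fold decrease in deep aestivation within counting error.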
